A study of Capra hircus with 9 samples.

Results

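Among the goat mRNAs named by XM_ accessions, which are RefSeq's predicted transcripts, 99 of 29872 were highest in cloned 8-cell embryos. They were chosen by their own measured values. The transcript had to reach 1 FPKM (mapped fragments scaled to the length of the transcript and the size of the library) in the SCNT-8c library. Its log2 ratio of SCNT-8c had to be above 2 over both IVF-8c and IVF-2c, after 0.1 FPKM was added to each value. The ratios below therefore describe a choice and were not tested.

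Embryos were compared in 3 libraries, 1 per condition, each from a pool of goat embryos. IVF-2c and IVF-8c were embryos made by in vitro fertilization and collected at the 2-cell and 8-cell stages. SCNT-8c were 8-cell embryos made by somatic cell nuclear transfer, for which a serum-starved goat fetal fibroblast from a female fetus was fused with an enucleated oocyte. The fused cells were activated with ionomycin and 6-DMAP, and all oocytes came from abattoir ovaries and were matured in vitro. The comparison asks which transcripts the cloned embryo carries beyond the level of fertilized embryos of the same stage and of the earlier stage. With 1 library per condition no difference has a replicate check, no p-value was calculated, and the spread between pools of embryos is unknown.

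In the early goat embryo, RNA stored by the oocyte is degraded while the embryo's own genome is switched on, with the main wave at the 8-cell stage. After nuclear transfer this genome is that of a differentiated cell, which the oocyte cytoplasm has to reprogram. Transcripts in the cloned embryo can therefore stem from the oocyte, from the embryonic program or from genes that were already active in the donor cell. Several transcripts can be made from 1 gene by different starts, splicing or ends, and FPKM values of such transcripts are estimates that divide shared fragments among them.

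The mRNA table put 304 XM_ transcripts higher in SCNT-8c than in IVF-8c by this limit (1.02% of all and 2.57% of the 11807 that reached 1 FPKM in SCNT-8c) and 1168 higher than in IVF-2c (3.91% and 9.89%). The 99 members, higher than in both, were 0.331% of all XM_ transcripts and 0.838% of those 11807. For comparison, 282 XM_ transcripts were highest in IVF-8c (0.944%) and 429 in IVF-2c (1.44%) by the same limits. Values given in groups of 3 below follow the order IVF 2-cell, IVF 8-cell, SCNT 8-cell. The FPKM of all XM_ transcripts summed to 1235520, 931965 and 888889, and the median-ratio factors of the libraries ran from 0.919 to 1.20. The depth behind these values is unknown. Of the oocyte markers, 11 of 20 were matched by name, and they summed to 17202, 10033 and 11917 FPKM, with 1 of the 11 at 0 in each library. BTG4 alone was at 10551, 7830 and 9371 FPKM, so the order of the sums largely follows this 1 gene. ZP2, ZP4 and NPM2 were lower in SCNT-8c than in IVF-8c, and the other matched markers above 0 were higher. In such bulk libraries fewer cells of a type and less RNA per cell cannot be told apart.

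**Figure D1:**
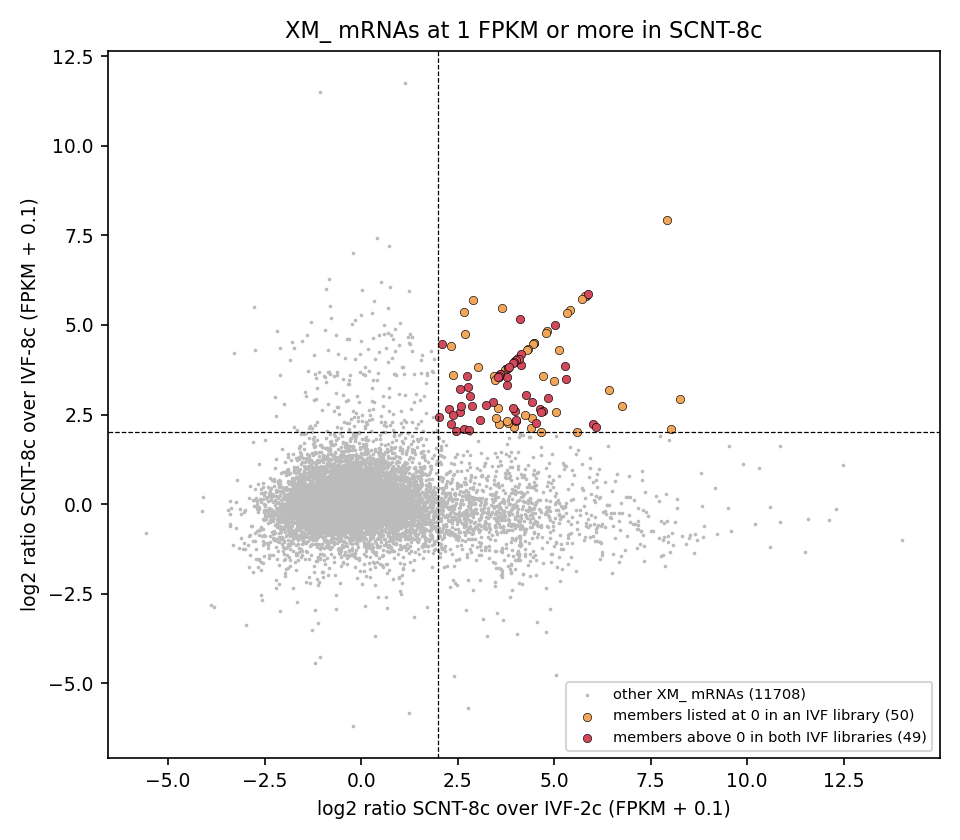
Log2 ratio of SCNT-8c over IVF-2c (horizontal) and over IVF-8c (vertical), on FPKM + 0.1, for the 11807 XM_ mRNAs at 1 FPKM or more in SCNT-8c, with dashed lines at 2. The 99 members fill the upper right corner, 50 of them listed at 0 in an IVF library (orange) and 49 above 0 in both (red). The other transcripts (grey) lie around 0, spread to the right, or stand above the horizontal line to the left of the members. In all, 304 transcripts exceed that line, members included.

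The members were weakly expressed. Their median was 2.14 FPKM in SCNT-8c, with quartiles of 1.43 and 3.99 FPKM, against a median of 6.91 FPKM for all XM_ transcripts at 1 FPKM or more in that library. Under 2 FPKM lay 43 of the 99 (43.4%), against 18.7% of all such transcripts. Transcripts highest in IVF-8c by the same limits had a median of 2.57 FPKM in that library, with 106 of 282 under 2 FPKM. Those highest in IVF-2c had a median of 4.57 FPKM in that library, with 103 of 429 under 2 FPKM. A low level was thus largely shared with the set highest in IVF-8c, and less with that highest in IVF-2c. Only 20 members reached 5 FPKM, 8 reached 10 FPKM and 5 reached 20 FPKM. In IVF-8c the members had a median of 0.112 FPKM, and in IVF-2c one of 0.000227 FPKM. The sum over all 99 was 25.8, 50.1 and 468.3 FPKM, and the last value is 0.0527% of the XM_ total of SCNT-8c.

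In the fertilized embryos, where the choice itself required lower values, most members were near absence in at least 1 library. Listed at exactly 0 were 17 members in both IVF libraries, 24 in IVF-2c alone and 9 in IVF-8c alone, and 49 were above 0 in both. In total, 41 members were at 0 in IVF-2c and 26 in IVF-8c. Of all 29872 XM_ transcripts, 8684 were at 0 in IVF-2c and 8051 in IVF-8c. That background includes transcripts under 1 FPKM in SCNT-8c, and the count without them was not made. Values above 0 but under 0.01 FPKM were given for 21 members in IVF-2c and 19 in IVF-8c. Counting both kinds, 34 members lay under 0.01 FPKM in both IVF libraries, 28 in IVF-2c alone, 11 in IVF-8c alone and 26 in neither. No fold is given below against a value of 0. Where a fertilized library was at 0, the log2 ratio is set by the added 0.1 FPKM and serves only for the choice, the ranking and the plots. Between the fertilized stages, the IVF-8c value (FPKM + 0.1) exceeded that of IVF-2c by a log2 ratio above 1 in 32 members. In 8 it was lower by as much, and 59 lay within 1. The 34 members under 0.01 FPKM in both IVF libraries are among these 59 because of the added 0.1 FPKM, so the count does not show stable levels.

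At the limit itself, XM_013973152.1 was just inside with 0, 1.09 and 4.68 FPKM, and a log2 ratio of 2.00 over IVF-8c. The other transcripts just inside were KCNJ13 (2.01 over IVF-8c) and ELAVL4 (2.02 over IVF-2c). Just outside were XM_013972655.1 (1.97 over IVF-8c), LRRC46 (1.96 over IVF-8c) and SAR1B, which had 6.36, 5.85 and 24.9 FPKM and a log2 ratio of 1.95 over IVF-2c. Below the minimum of 1 FPKM, the nearest with both ratios above 2 were LOC102182981 (0.996 FPKM in SCNT-8c), RBM47 (0.987) and XM_013974332.1 (0.973).

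The member with the highest level, XM_005679777.1, was at 11.3, 11.2 and 67.1 FPKM. It was the single member above 10 FPKM in a fertilized library. XM_005695265.2 was at 1.72, 5.38 and 39.3 FPKM in the same order. XM_013974470.1 was listed at 0 in IVF-2c and was at 3.86 FPKM in IVF-8c and 30.4 in SCNT-8c. These transcripts have no name in the RefSeq gene table. XM_013962331.1, also without a name, was listed at 0 in both fertilized libraries and was at 24.2 FPKM in SCNT-8c.

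Gene names were found for 50 of the 99 members (50.5%, against 44.3% of all XM_ transcripts), which belong to 47 genes. Of these genes, 7 carry only a LOC number. Because 49 members have no name here, the groups of genes below cover the named ones alone. For 20 of the 47 genes the member was the only named transcript in the table, and 27 genes had several.

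CRSP-2 had the highest level among the named members. It encodes a calcitonin receptor-stimulating peptide, a member of the calcitonin family of peptide hormones. Its member transcript XM_013969432.1 was listed at 0 in IVF-2c and was at 5.98 FPKM in IVF-8c and 25.9 in SCNT-8c. The curated transcript of the same gene, NM_001285687.1, did not enter the choice because of its prefix, and it was at 0, 8.30 and 41.2 FPKM. The sum of both was 0, 14.3 and 67.1 FPKM, so that its log2 ratio over IVF-8c was 2.22.

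Some of the genes that met the limits by the sum of their named transcripts encode secreted or matrix proteins. MFAP5, a glycoprotein of elastic microfibrils, was at 0.409, 0.503 and 6.90 FPKM, with log2 ratios of 3.54 over IVF-8c and 3.78 over IVF-2c. CXCL14, a chemokine, was at 0.0279, 0.246 and 4.89 FPKM, with log2 ratios of 3.85 over IVF-8c and 5.28 over IVF-2c. Both were under 1 FPKM in each fertilized library. PTN encodes pleiotrophin, a heparin-binding growth factor, and its 2 transcripts summed to 0.253, 0.677 and 5.56 FPKM. Of these 5.56 FPKM, the member XM_005679509.2 held 4.35 and the other transcript 1.21, and both transcripts were highest in SCNT-8c.

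Proteins of the membrane and the cytoskeleton were a further group. ANXA1, a phospholipid-binding annexin, was at 0.284, 1.14 and 6.13 FPKM. ROBO2, a receptor for SLIT guidance proteins, summed to 0.328, 1.73 and 7.24 FPKM, and its sum had a log2 ratio of 2.00 over IVF-8c. CALD1, the actin-binding caldesmon, was at 0.271, 0.401 and 1.96 FPKM. In ANXA1 and ROBO2 the order of the libraries was IVF-2c, IVF-8c, SCNT-8c, so that the cloned embryos stood above a level that was already higher at the 8-cell than at the 2-cell stage. KCNJ13, an inwardly rectifying potassium channel, and TMEM17, a membrane protein of the ciliary transition zone, were both listed at 0 in IVF-2c. They were at 0.530 and 0.191 FPKM in IVF-8c and at 2.44 and 3.07 FPKM in SCNT-8c. UACA, a coiled-coil protein with ankyrin repeats, was listed at 0 in both fertilized libraries and was at 1.88 FPKM in SCNT-8c. GPR18, a G protein-coupled receptor, was at 0.0870, 0.205 and 1.18 FPKM.

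Regulators of transcription and chromatin were led by JUNB, a subunit of the AP-1 transcription factor. JUNB was at 1.17, 0.992 and 8.78 FPKM, with log2 ratios of 3.02 over IVF-8c and 2.81 over IVF-2c. The fertilized stages thus had nearly the same level and the cloned embryos alone stood apart. C27H8orf4, the goat counterpart of the human open reading frame C8orf4 that has been linked to Wnt signalling, was listed at 0 in IVF-2c and was at 0.848 FPKM in IVF-8c and 8.52 in SCNT-8c. FEZF2, a zinc finger repressor best known from the forebrain, was at 0.0622, 0.548 and 3.95 FPKM. ZNF148, a Krüppel-type zinc finger protein, was almost entirely 1 transcript, which was at 0, 9.84e-05 and 5.45 FPKM. KAT14, a subunit of the ATAC histone acetyltransferase complex, was at 0.0104, 0.00917 and 1.43 FPKM, and HMGB4, an HMG-box protein, at 0.0738, 0 and 1.31 FPKM.

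Enzymes and protein folding were represented by ALAS1 and FKBP7. ALAS1, the first and rate-limiting enzyme of heme synthesis, was at 0.0169, 1.49 and 7.34 FPKM. FKBP7 is a peptidyl-prolyl isomerase of the endoplasmic reticulum. Both of its named transcripts were members, XM_005675910.2 with 0.458, 0.214 and 3.65 FPKM and XM_005675911.2 with 0, 2.45e-06 and 2.14 FPKM. Their sum was 0.458, 0.214 and 5.79 FPKM, with log2 ratios of 4.23 over IVF-8c and 3.40 over IVF-2c. PXYLP1, a phosphatase that acts on xylose in proteoglycan synthesis, was at 0.00592, 0.146 and 1.94 FPKM.

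Among genes with a LOC number alone, LOC102189173 had the highest level, at 2.25, 2.03 and 14.0 FPKM. LOC102189885 was at 0.0329, 0.0580 and 2.25 FPKM. LOC102189842 was listed at 0 in both fertilized libraries and was at 1.54 FPKM in SCNT-8c. LOC102190268 and LOC102188368 reached 1.09 and 1.02 FPKM in SCNT-8c.

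**Figure D2:**
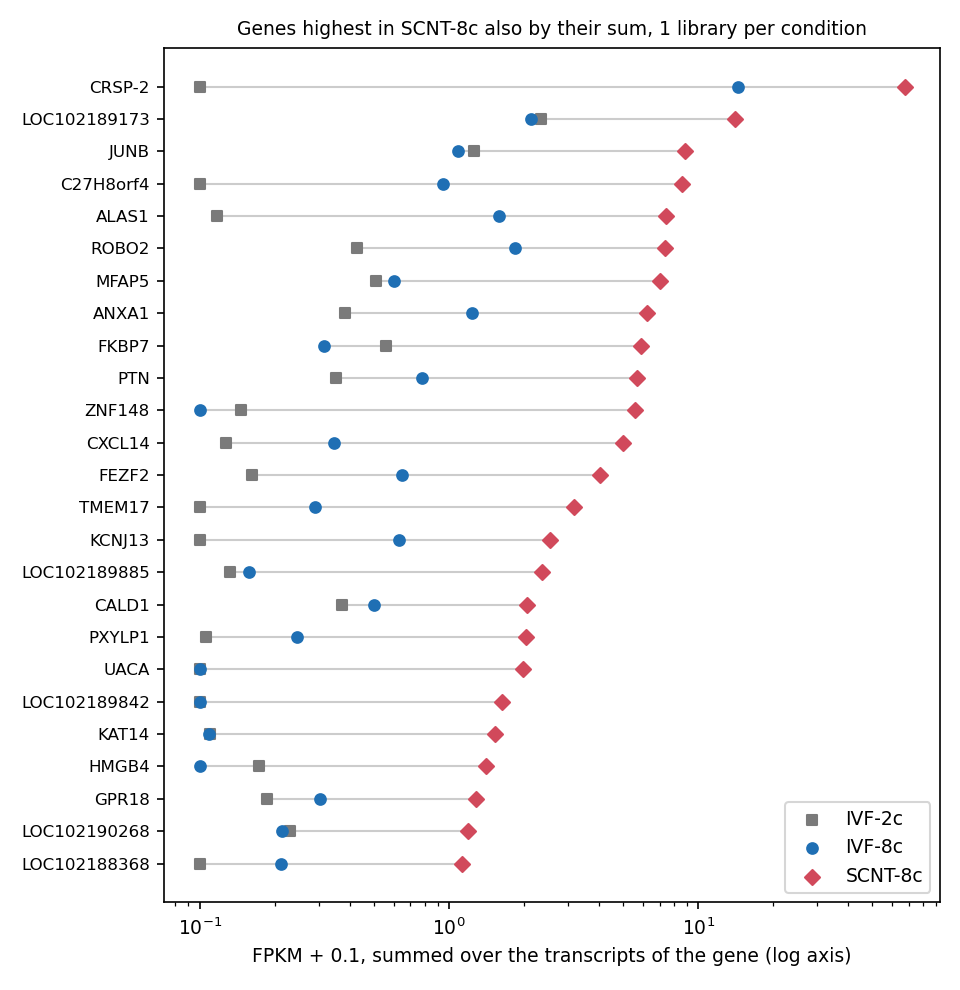
FPKM + 0.1 on a log axis, summed over the named transcripts of each gene, for the 25 member genes whose sum also met the limits, with grey squares for IVF-2c, blue circles for IVF-8c and red diamonds for SCNT-8c, 1 library each. The red diamond lies farthest to the right in every row, from 1.02 FPKM in LOC102188368 to 67.1 FPKM in CRSP-2, and in JUNB, MFAP5 and LOC102189173 the fertilized libraries lie close together.

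The other transcripts of the member genes were not used in the choice, and the sum with them gives the level over all named transcripts of the gene. They come from the same libraries, and their values were estimated together with that of the member from shared fragments, so they are no independent measurement. In the 20 genes with 1 named transcript the gene and the member are the same value. In the 27 genes with several, the sum over all named transcripts met the limits in 5, namely ZNF148, FKBP7, PTN, CRSP-2 and ROBO2. In the other 22 it did not. Across these 22 genes the smaller of the 2 log2 ratios had a median of -0.07 for the sum, lay within 1 of 0 in 17 and was below 0 in 13. AKAP4 missed the limit most narrowly, with a log2 ratio of 1.93 for its sum over IVF-8c. Sums cover only transcripts whose accession was matched, so unnamed transcripts of these genes may be missing from them.

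The same count was made for the transcripts highest in each fertilized library. The sum met the limits in 5 of 27 (18.5%) for the members, 15 of 59 (25.4%) of these genes for transcripts highest in IVF-8c and 16 of 74 (21.6%) for those highest in IVF-2c. Genes with a single named transcript made up 42.6% of the member genes, 62.7% and 41.3% in those other sets, and 68.0% of the 4612 named genes at 1 FPKM or more in SCNT-8c. Values under 0.01 FPKM in both other libraries were found for 34.3% of the members, 25.2% of the transcripts highest in IVF-8c and 17.0% of those highest in IVF-2c. No test was run on these shares.

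**Figure D3:**
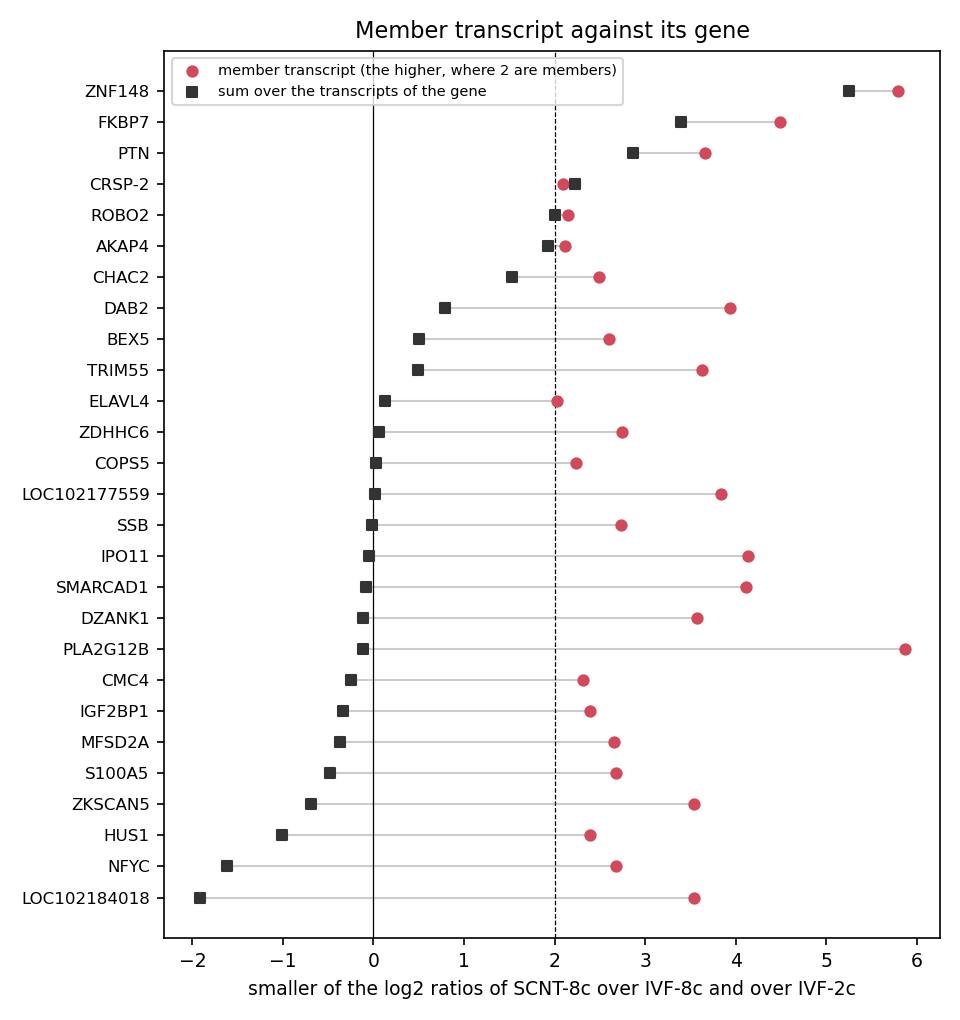
Smaller of the log2 ratios of SCNT-8c over IVF-8c and over IVF-2c, for the member transcript (red) and for the sum over the named transcripts of its gene (black squares), in the 27 member genes with several named transcripts, with a dashed line at 2. The squares of 5 genes lie above 2, from ZNF148 at 5.26 to ROBO2 at 2.00, and those of 17 genes lie within 1 of 0.

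In several of these genes the member and another transcript had opposite patterns. PLA2G12B, a secretory phospholipase A2 family member involved in lipoprotein secretion, had a total of 3.81, 6.42 and 5.90 FPKM. Its transcript XM_005699183.2 held 3.81 and 6.42 FPKM in the fertilized libraries and 7.12e-05 in SCNT-8c. The member XM_005699182.2 was at 0.00297, 0.00267 and 5.90 FPKM. Nearly the whole level of the gene was thus assigned to 1 transcript in the fertilized embryos and to the other in the cloned embryos.

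DZANK1, which has zinc ribbon and ankyrin repeat domains, summed to 1.205, 0.921 and 1.11 FPKM. Its main transcript in fertilized embryos, XM_005688072.2, was at 1.105, 0.921 and 0.0168 FPKM, and the member XM_013968604.1 at 1.04e-04, 4.15e-04 and 1.09 FPKM. In TRIM55, a muscle ring finger protein, XM_005689025.2 was at 1.17, 1.42 and 0.0213 FPKM and the member XM_013969216.1 at 0, 2.01e-04 and 1.14 FPKM. The member held 53.6% of the TRIM55 sum in SCNT-8c, and a non-member transcript, XM_013969220.1, was at 0.140, 0 and 0.964 FPKM. LOC102177559 had 1 transcript at 1.31, 0.784 and 2.38e-05 FPKM and the member at 4.56e-05, 9.47e-05 and 1.33 FPKM. In 13 of the 27 genes the non-member transcripts together were lower in SCNT-8c than in both fertilized libraries. The same count, each for its own library, was 23 of 59 genes for transcripts highest in IVF-8c and 20 of 74 for IVF-2c. The pattern was thus not particular to the cloned embryos. Each of these values is from 1 library.

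**Figure D4:**
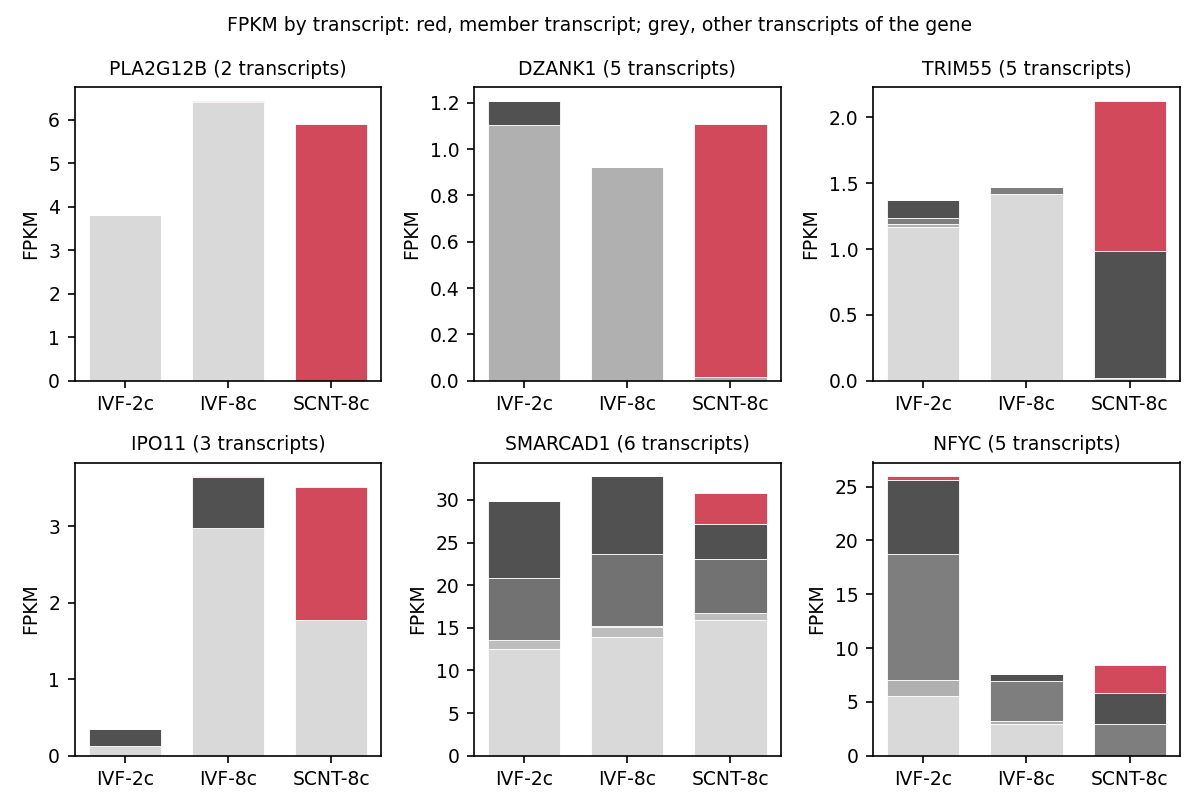
FPKM of each named transcript, stacked by library and gene, as bars for the 3 embryo conditions of 6 genes, with the member transcript in red and the other transcripts in grey. In PLA2G12B and DZANK1 the red bar makes up nearly the whole of SCNT-8c and is not visible in the fertilized libraries, whereas in SMARCAD1 and NFYC it is 11.6% and 30.8% of the SCNT-8c total.

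In abundant genes the member was a minor transcript. SSB encodes the La protein, which binds the ends of new RNA polymerase III transcripts. Its transcripts summed to 713.9, 1076 and 1065 FPKM, of which the member XM_013968988.1 was 0, 1.54 and 10.8 FPKM. COPS5, the catalytic subunit of the COP9 signalosome, summed to 49.5, 37.3 and 50.5 FPKM, with 2.45, 2.64 and 12.8 FPKM in the member. HUS1, a subunit of the DNA damage clamp, summed to 171.9, 96.6 and 85.3 FPKM, and its member reached 1.104 FPKM in SCNT-8c. The sums of SSB and HUS1 in SCNT-8c were below those in IVF-8c, and that of COPS5 had a log2 ratio of 0.03 over IVF-2c.

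SMARCAD1, a chromatin remodelling enzyme, had 6 named transcripts that summed to 29.9, 32.7 and 30.8 FPKM, and its member was at 0.111, 0.00163 and 3.57 FPKM. NFYC, a subunit of the CCAAT-binding factor NF-Y, summed to 25.9, 7.62 and 8.38 FPKM. The NFYC member was at 0.319, 0 and 2.58 FPKM, while 2 other transcripts, at 5.57 and 1.42 FPKM in IVF-2c, were listed at 0 in SCNT-8c. ZKSCAN5, a zinc finger protein with a SCAN domain, had 8 named transcripts that summed to 6.86, 3.98 and 4.23 FPKM, of which the member held 1.07 in SCNT-8c and 0 elsewhere. ZDHHC6, a palmitoyltransferase, had 2 members with 2.22 and 2.14 FPKM in a total of 23.4 FPKM. S100A5, a calcium-binding protein, had 2 members with 1.098 and 1.06 FPKM in a total of 7.20 FPKM over 7 transcripts.

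A further set of genes was detected in both 8-cell libraries, and the member was 1 of their transcripts. BEX5, from an X-linked family of small adaptor proteins, summed to 2.36e-04, 42.0 and 59.7 FPKM, and its member held 4.25% of the SCNT-8c sum. IGF2BP1, an RNA-binding protein of fetal tissues, was at 0 in IVF-2c and summed to 4.53 FPKM in IVF-8c and 3.58 in SCNT-8c, where the member held 56.8%. IPO11, a nuclear import receptor, summed to 0.349, 3.65 and 3.52 FPKM, with 49.5% in the member. CHAC2, an enzyme that breaks down glutathione, was listed at 0 in IVF-2c and summed to 1.82 and 5.42 FPKM in IVF-8c and SCNT-8c, and both of its transcripts were higher in SCNT-8c. DAB2, an endocytic adaptor, summed to 0.352, 2.45 and 4.31 FPKM, and its member was at 3.50e-05, 3.05e-05 and 1.44 FPKM.

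In CMC4 and MFSD2A the member was listed at 0 in IVF-8c alone. CMC4, a small mitochondrial protein, was listed at 0 in IVF-8c for both of its transcripts and summed to 5.79 FPKM in IVF-2c and 4.84 in SCNT-8c. MFSD2A, a transporter of lysophospholipids, summed to 2.38, 7.46 and 5.74 FPKM. The MFSD2A member was at 0.557, 0 and 4.04 FPKM and its other transcript at 1.83, 7.46 and 1.70 FPKM. ELAVL4, a neuronal RNA-binding protein, summed to 2.89, 3.19 and 3.51 FPKM, and LOC102184018 to 6.73, 1.90 and 1.71 FPKM.

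Ranked by the smaller of the 2 log2 ratios, which for transcripts at 0 in both fertilized libraries follows the SCNT-8c level alone, PLA2G12B, ZNF148, FKBP7 (XM_005675911.2), UACA, IPO11 and SMARCAD1 were the named transcripts among the first 20 members, and 14 had no name. Of these unnamed transcripts, 9 were listed at 0 in both fertilized libraries. After XM_013962331.1 at 24.2 FPKM, the highest of the 9 in SCNT-8c were XM_005702118.1 at 5.54, XM_013977218.1 at 5.17, XM_013977323.1 at 3.90, XM_013962308.1 at 2.73 and XM_013973683.1 at 2.66 FPKM. XM_013973444.1, XM_013964196.1 and XM_013966087.1 were at 2.14, 2.095 and 1.89 FPKM. The remaining 5, XM_005676154.2, XM_013964342.1, XM_005687065.2, XM_005691602.2 and XM_013975048.1, reached 4.19, 3.13, 3.36, 1.58 and 1.59 FPKM in the cloned embryos and stayed under 0.1 FPKM in each fertilized library.

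The gene lists show how the members stand among genes of known roles. Each list is partly covered, since between 23.3% and 73.7% of its genes had a named transcript, and no list median was therefore calculated. Over the 9222 named genes, summed by gene, 0.575% were higher in SCNT-8c than in IVF-8c, 4.87% higher than in IVF-2c and 0.304% higher than in both by the same limits. Of the 17 lists, 3 contained a member, namely ANXA1 in the fibroblast list, JUNB among the immediate early genes and AKAP4 among the sperm genes. Here 1 member transcript was enough, and the sum of AKAP4 did not meet the limits. Of all 9222 named genes, 47 had a member transcript. At that share most lists would hold none, so their absence from a list is not read as a result. No member was in the lists for oocyte, cumulus and granulosa cells, embryonic genome activation, pluripotency and lineage, or p53 and apoptosis. None was in those for heat shock, oxidative stress, interferon, imprinting, germline, chromatin, cell cycle, signalling or housekeeping. Only XM_ transcripts could be members. By gene sums, which include curated NM_ transcripts, CXCL10 of the interferon list and IGF2 of the imprinted list met the same limits.

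The donor cells were fibroblasts, and 20 of 35 genes of the donor fibroblast and matrix list were matched. Their sums were 166.5, 116.0 and 128.7 FPKM, with 6, 1 and 1 genes at 0. DCN alone was at 116.6, 56.3 and 57.4 FPKM, so the order of the sums largely follows this 1 gene. By the limits, 2 of the 20 were higher in SCNT-8c than in IVF-8c, 7 were higher than in IVF-2c, and ANXA1 alone was higher than in both. TAGLN, a smooth muscle actin-binding protein, was the other gene above IVF-8c, with 3.69, 0.512 and 2.85 FPKM. COL1A2, a chain of type I collagen, was at 2.12, 2.51 and 3.46 FPKM. LUM, a matrix proteoglycan, was at 3.56, 9.53 and 15.7 FPKM. Other fibroblast genes were higher in fertilized than in cloned 8-cell embryos, such as TIMP1, an inhibitor of matrix proteases, at 16.6 against 8.26 FPKM, and THY1, a surface marker, at 1.51 against 1.05 FPKM.

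Of the immediate early genes, 7 of 27 were matched and JUNB was the only one highest in SCNT-8c. FOS, the partner of JUN proteins in AP-1, was at 0.0543, 48.0 and 15.6 FPKM. FOSL1, another AP-1 subunit, was at 0.286, 2.53 and 8.54e-06 FPKM. BTG1, an antiproliferative factor, was at 3.80, 78.1 and 43.8 FPKM, and ZFP36, which destabilizes mRNAs, was at 3.20, 10.7 and 5.65 FPKM. JUNB was thus higher in SCNT-8c where FOS, FOSL1, BTG1 and ZFP36 were higher in IVF-8c. IER3 and SRF differed by a log2 ratio of -0.03 and -0.17 between the 8-cell libraries.

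AKAP4, an anchoring protein of the sperm tail, was at 0.0170, 0.469 and 2.07 FPKM over its 4 transcripts. The sperm list had 3 of 11 genes matched, and the other 2 were not highest in SCNT-8c. TNP1, a transition protein of spermatids, was at 0, 3.72 and 1.02 FPKM, and CAPZA3 was listed at 0 in all 3 libraries. The cumulus and granulosa list, with 10 of 18 matched, summed to 84.0, 72.2 and 95.4 FPKM. TNFAIP6 alone was at 2.22, 26.6 and 51.2 FPKM, so the higher sum in SCNT-8c than in IVF-8c rests on this 1 gene. Of the 6 matched genes that reached 1 FPKM in a library, 2 were highest in SCNT-8c. Whether other cell types took part in the levels of the members was not tested.

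The embryonic genome activation list had 7 of 30 genes matched, and none was highest in SCNT-8c. ARGFX and KLF17, transcription factors of the early embryo, were at 842.8 and 87.6 FPKM in IVF-8c and at 628.0 and 46.2 FPKM in SCNT-8c. EIF1AX, a translation initiation factor used as a marker of this wave, was at 47.0, 230.5 and 96.9 FPKM. DPPA2, a factor of the cleavage-stage embryo, was at 0.654, 34.7 and 10.4 FPKM, and the transcription factor SP1 was at 1.65, 2.61 and 2.08 FPKM.

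Of the 275 curated transcripts with NM_ accessions, which the choice left out, 5 met the same limits. Besides CRSP-2 these were IGF2, PEG10, CXCL10 and MAP28. IGF2, an imprinted fetal growth factor, was at 0.227, 0.128 and 2.68 FPKM, and with its second transcript it summed to 3.44 FPKM in SCNT-8c and had a log2 ratio of 3.96 over IVF-8c. The PEG10 transcript was at 0.00146, 5.12e-05 and 2.33 FPKM, but the sum of PEG10, an imprinted gene derived from a retrotransposon, was 1.46, 1.26 and 2.33 FPKM. CXCL10, an interferon-induced chemokine, was at 0.778, 0 and 3.43 FPKM. MAP28, a cathelicidin peptide of neutrophils, was listed at 0 in both fertilized libraries and was at 1.204 FPKM in SCNT-8c. Of the imprinted list, 10 of 33 genes were matched, and IGF2 was the only one whose sum met the limits over both fertilized libraries. Without the limits, 4 of the 8 matched genes that reached 1 FPKM in a library were highest in SCNT-8c.

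Classes read from the gene symbols were small among the 47 member genes. ZKSCAN5 and ZNF148 were the 2 with a zinc finger symbol (4.26%, against 1.67% of the 4612 named genes at 1 FPKM or more in SCNT-8c). FEZF2 is also a zinc finger protein but was not counted by its symbol. Ion channels, cytokines or receptors, and TMEM genes had 1 each (2.13%), against 0.325%, 0.564% and 1.58% of the 4612. No member gene was a solute carrier or a motor or cilium gene by its symbol, and these classes made up 1.56% and 1.99% of the 4612. Genes known by a LOC number alone made up 14.9% of the member genes and 8.61% of all.

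Gene order was taken from RefSeq over protein-coding genes with a named transcript here, so genes without one were skipped. In this order KAT14 and DZANK1 were the only pair of direct neighbours, and DZANK1 did not meet the limits by its sum. No expected number of such pairs was calculated. CRSP-2 and LOC102189885, and likewise HMGB4 and KCNJ13, had 1 gene between them, and PXYLP1 and LOC102190268 had 4. The 47 genes had 90 direct neighbours that were no members, of which 57 reached 1 FPKM in SCNT-8c. None of the 57 was more than a log2 ratio of 1 above both fertilized libraries, against 1.63% of all named genes at that level. The median of the smaller log2 ratio was -0.42 for the 57, and that of all named genes was -0.45. Member genes were left out of the 57 but counted in the 1.63%. At such a low share few or none would be found among 57 genes, so nothing is concluded from this count.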

How the data were processed

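The authors deposited FPKM values per mRNA transcript for the 3 embryo libraries, 1 per condition. Embryo RNA was amplified with a SMART-Seq low-input kit. The submitters' processing notes name TopHat2 2.0.12, Bowtie2 2.2.3, Cufflinks 2.1.1 and Cuffdiff. The genome build and annotation release are not given in the sources used here. FPKM of isoforms rests on how shared fragments are assigned, and the values keep no whole fragments, so depth and counting error are unknown.

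Log2 ratios were calculated on FPKM + 0.1 in pandas 2.3.3 (Python 3.11.15), and the counting was tested on simulated data. These had no noise and changes well past the limit, so the test checked the code and not how reliable low values are. Accessions were matched without their version to RefSeq genes of the assembly ARS1.2 (28911 genes), which named 13245 of the 29872 XM_ transcripts. Only 4 members matched with their version. No coordinates were used beyond gene order.

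The members and lists were chosen with earlier results of these data known. The genes to be named were members at 10 FPKM or more, the 20 with the largest log2 ratio over the higher IVF library, the 5 highest, list genes, genes with 2 member transcripts, and the 3 transcripts on each side of the limit. Others were named after their values were seen. The lncRNA table and the 6 fibroblast libraries, whose gene numbers have no names here, were not used.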

Additional observations from a re-analysis of the deposited data

How the results depend on the processing

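No paired analysis was possible because the results come from no test and the embryo conditions have 1 library each. The number of members depended on how low values were treated. The values below are, in order, the members, those listed at 0 in both IVF libraries, those with a gene name, and the XM_ mRNAs higher than in IVF-8c and than in IVF-2c. They were 99, 17, 50, 304 and 1168 as reported. With a pseudocount of 1 they were 21, 4, 10, 62 and 634, and with a minimum of 5 FPKM 20, 3, 12, 58 and 618. Without a minimum the first 4 were 233, 89, 115 and 667. With a log2 limit of 1, 289 members, 150 named members, and 905 and 2052 mRNAs passed, and with a limit of 3, 49 members, 22 named members and 180 mRNAs over IVF-8c. Among transcripts above 0 in all 3 libraries there were 49 members, 0 at 0 in both, 26 with a name, and 191 over IVF-8c. Summed per named gene the values were 28, 3, 28, 53 and 449. The median SCNT-8c level of 2.14 FPKM became 5.90 with a pseudocount of 1, 8.03 with a minimum of 5 FPKM, 0.832 without a minimum and 3.43 for gene sums. Median-ratio scaling, TPM, a pseudocount of 0.01 and the NM_ transcripts left every one of these 6 results within 1.5 times, with 109, 102, 109 and 104 members, of which 97, 93 and 99 were the same transcripts under the first 3.

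Gene sums put these member genes below a fertilized library. Over IVF-8c the log2 ratio of the sum was -0.18 in HUS1, -0.33 in IGF2BP1, -0.0525 in IPO11, -0.15 in LOC102184018, -0.37 in MFSD2A, -0.12 in PLA2G12B, -0.48 in S100A5, -0.0881 in SMARCAD1 and -0.0152 in SSB. Over IVF-2c it was -0.25 in CMC4, -0.11 in DZANK1, -1.01 in HUS1, -1.92 in LOC102184018, -1.62 in NFYC and -0.68 in ZKSCAN5. The other alternatives turned the sign of no ratio of a named member, but the sizes depended on the pseudocount. Of the 100 ratios of named members, a pseudocount of 1 left 27 above 2. The CXCL14 ratio over IVF-2c of 5.28 became 2.52 with a pseudocount of 1 and 7.01 with one of 0.01. Median-ratio scaling left 99 above 2 and TPM all 100. The planned promoter and protein features were not run, since no sequence table was used here.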
